A study of Mus musculus with 16 samples.

Results

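The 36 genes described here make up the ATF4 amino acid response and a set of cytosolic tRNA synthetases. They were taken by name from the gene column of every library, out of 17097 genes in all, and all 36 were present. By role they are 4 transcription factors, 5 feedback and stress regulators, 6 amino acid transporters, 9 enzymes of amino acid and one-carbon metabolism, and 12 tRNA synthetases. The study examined Gi signalling in astrocytes of the mouse striatum by RNA sequencing. All mice were wild-type C57BL/6J males of 63 days, and their striata were collected 2 h after an injection. The injection was clozapine-N-oxide (CNO), a ligand of designer receptors, at 1 mg/kg, or vehicle. From each mouse, RNA was sequenced from a pull-down through a haemagglutinin (HA) tag on astrocyte ribosomes (IP) and from the cleared lysate of the same striata (input). This gave 4 libraries each of CNO IP, of vehicle IP, of CNO input and of vehicle input, numbered 2 to 5 within each group.

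The labels used here name neither the designer receptor nor the vector or promoter that carried the receptor and the tag, and they give no group that received CNO without a receptor. The sample titles carry 8 mouse codes, whereas the series text speaks of 4 mice. If the codes were not separate animals, the p-values would reflect no more than the spread of these samples. The IP libraries held 52074653 to 61540813 reads assigned to genes, and the input libraries held 32751710 to 40331510. In vehicle mice 12 of 12 astrocyte markers were higher in IP than in input, while 12 of 12 medium spiny neuron markers and 10 of 10 microglial markers were lower. Markers of ependyma (6 of 6), striatal interneurons (7 of 8) and oligodendrocytes (7 of 10) were higher in IP as well. Of the 10 endothelial and pericyte markers, 9 were lower in IP and 1, Pdgfrb, was higher. Of the 15872 genes tested, 37.7% were higher in IP and 37.2% were lower. These counts used an adjusted p under 0.05 in limma as the threshold. The summed level of the 12 astrocyte markers was 34178 to 38013 CPM in CNO IP and 33347 to 40851 CPM in vehicle IP. CPM, the deposited unit, is reads scaled by a normalized library size. Of the 12 markers, 2 were lower with CNO at the threshold. Slc1a2 alone averaged 18960 CPM in CNO IP and 19876 CPM in vehicle IP. Of the 12 markers, 9 had a negative log2 difference of CNO over vehicle in IP, with a median of -0.15. At an unadjusted p under 0.05 in limma, 5 were lower and 0 higher. In IP, vehicle mouse 5 was the highest of the 4 vehicle libraries for 18 of the 36 members, and in input for 24 of the 36. Among CNO IP libraries, replicate 4 was the lowest for 23 of the 36.

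In the integrated stress response, kinases that sense amino acid shortage, unfolded protein, viral RNA or haem lack phosphorylate the initiation factor eIF2. General translation then slows, while the mRNA of ATF4 is translated more through its upstream open reading frames. ATF4, a basic leucine zipper factor, binds C/EBP-ATF response elements with partners of the C/EBP family and raises genes for amino acid uptake, amino acid synthesis and tRNA charging. It also raises its own brakes, among them GADD34, which returns phosphatase to eIF2. In astrocytes the same gene set bears on serine and glycine supply and on cystine uptake for glutathione. Neither eIF2 phosphorylation nor ATF4 protein was measured here.

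The promoter sequences of members that were higher with CNO are shown because the element that ATF4 binds can be read in them. RefSeq windows (GRCm38.p6), from 250 bases before to 50 bases after the transcription start, were used for 28 of the 36 members. Slc7a5, Slc1a5, Cars, Lars, Mars, Nars and Wars were not matched. On both strands the C/EBP-ATF response element was searched as TGATGNAAN. It was present in 10 of these 28 members' windows, against 4.50% of the 27025 genes with a window. The members were listed as an ATF4 response, so a share above that of all genes could come from the choice of the list. Of the 15 of them that were higher with CNO in IP, 6 held it, and so did 4 of the other 13 (Asns, Gars, Pck2 and Slc1a4). The capitals below mark the element, which reads as its reverse complement in Chac1, Trib3, Iars and Tars, and in both directions in Slc7a11. Positions count the first transcribed base as 1, with no base 0.
Chac1 (chr2:119351008-119351096, plus strand, element at -194 to -186): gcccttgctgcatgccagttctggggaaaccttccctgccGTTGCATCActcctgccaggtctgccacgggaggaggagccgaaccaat
Trib3 (chr2:152344029-152344058, minus strand, element at 14 to 22): attagctcaggTTTACATCAgccgggcggg
Slc7a11 (chr3:50443614-50443719, minus strand, elements at -66 to -58 and -48 to -40): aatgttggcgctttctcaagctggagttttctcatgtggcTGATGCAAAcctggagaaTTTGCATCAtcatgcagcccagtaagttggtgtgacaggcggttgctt
Iars (chr13:49682125-49682154, plus strand, element at 7 to 15): gcactgtcagtATTGCATCAcctccagacg
Tars (chr15:11399659-11399714, minus strand, element at -16 to -8): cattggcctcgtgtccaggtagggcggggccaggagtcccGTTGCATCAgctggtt
Yars (chr4:129189895-129189924, plus strand, element at 4 to 12): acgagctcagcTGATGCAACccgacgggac
Atf4 (chr15:80255084-80255183, plus strand, bases -100 to -1, no element): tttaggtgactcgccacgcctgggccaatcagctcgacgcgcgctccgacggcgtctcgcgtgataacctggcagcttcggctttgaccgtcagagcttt

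In Slc7a11 the 2 elements faced each other with 9 bases between them, and no other window of these 28 held a pair. The cAMP response element TGACGTCA was found in 1 member, Ppp1r15a, at -12 to -5, against 2.03% of genes with a window. The AP-1 element TGANTCA was found in Ddit3 and Slc7a1, against 8.97% of genes. No match to these 2 motifs overlapped a C/EBP-ATF element. A match describes the letters of the window, and binding was not measured.

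**Figure D1:**
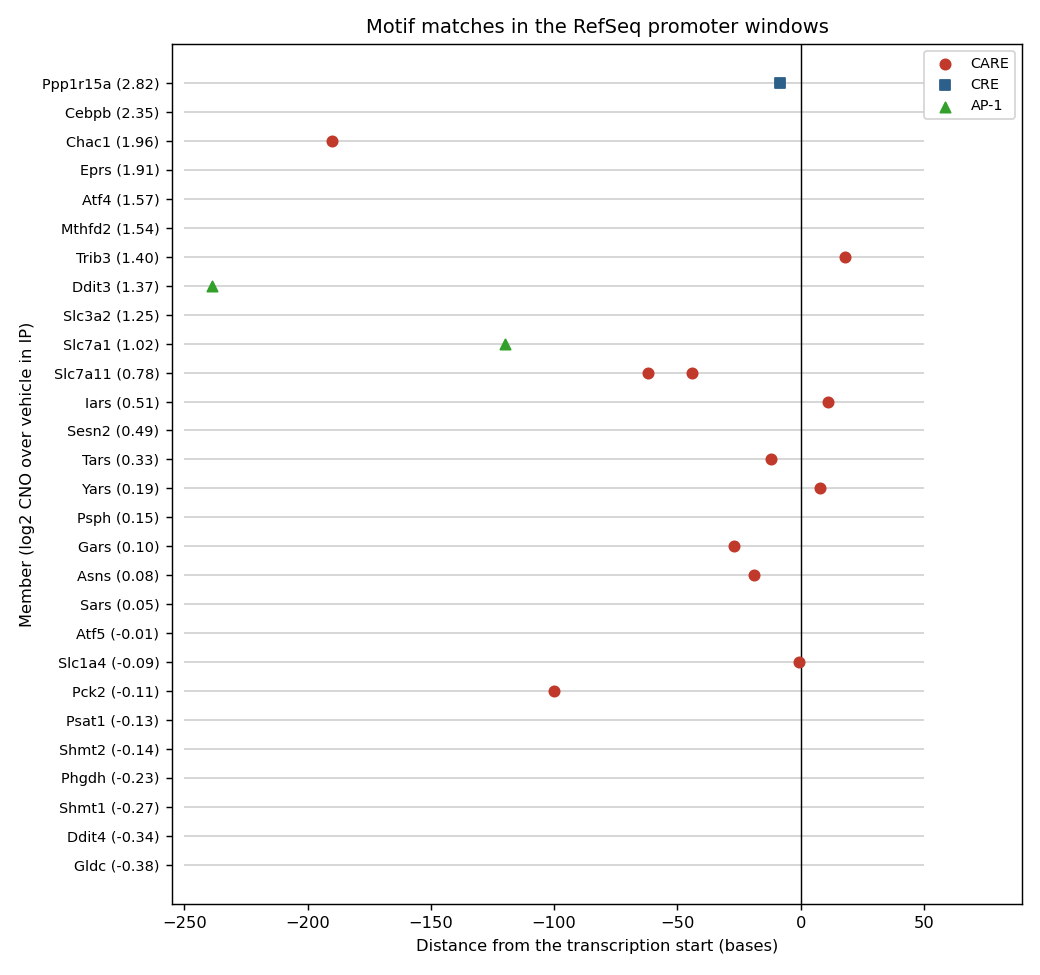
Positions of motif matches in the RefSeq windows of 28 members, in bases from the transcription start, with members ordered from the largest to the smallest log2 difference of CNO over vehicle in IP (in brackets). C/EBP-ATF elements (CARE) lay in 10 windows, 6 of members that were higher with CNO and 4 of members that did not pass the threshold.

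CNO was compared with vehicle in IP to show how the members changed in astrocyte ribosome-associated RNA. Of the 36 members, 18 were higher and 1, Gldc, was lower at an adjusted p under 0.05 in limma, where 10.2% of the 15602 genes tested were higher and 7.08% were lower. The median log2 difference was 0.26 over the members and -0.01 over all genes, and 11 members were at least 2-fold higher. Other scalings moved the balance over all genes, from which the members are read: 1599 genes were higher and 1104 lower as deposited, 1361 and 1466 under median of ratios scaling, and 1260 and 1946 under upper quartile scaling, while 18 and 17 members were higher under these 2 scalings. By role, 3 of 4 transcription factors, 4 of 5 regulators, 4 of 6 transporters, 1 of 9 enzymes and 6 of 12 synthetases were higher. All 4 CNO IP libraries lay above all 4 vehicle IP libraries for 18 members and below them for 3, where 12.8% and 10.1% of genes did so. In bulk RNA, a change in the number of cells of a type and a change in RNA per cell cannot be told apart. Beside these counts, the summed endothelial and pericyte markers were 56.6 to 64.8 CPM in CNO IP and 91.7 to 109 CPM in vehicle IP, with 1 of 10, the pericyte receptor Pdgfrb, lower at the threshold. Pdgfrb alone averaged 25.4 CPM in CNO IP and 63.3 CPM in vehicle IP, which is most of the gap in the sum. It averaged 22.2 CPM in vehicle input, and was the 1 marker of the 10 that was higher in IP than in input in vehicle mice. Its level in IP thus did not follow the other 9, which were lower there. The fall was not limited to Pdgfrb: 9 of the 10 had a negative log2 difference in IP, with a median of -0.25. At an unadjusted p under 0.05 in limma, 4 of the 10 were lower and 1 was higher. The 6 ependymal markers summed to 181 to 239.9 CPM in CNO IP and 228 to 331 CPM in vehicle IP, none past the threshold in either direction, at an unadjusted p under 0.05 for 0 higher and 1 lower. No marker of these 2 lists was without reads, and their part in the members' changes was not tested.

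**Figure D2:**
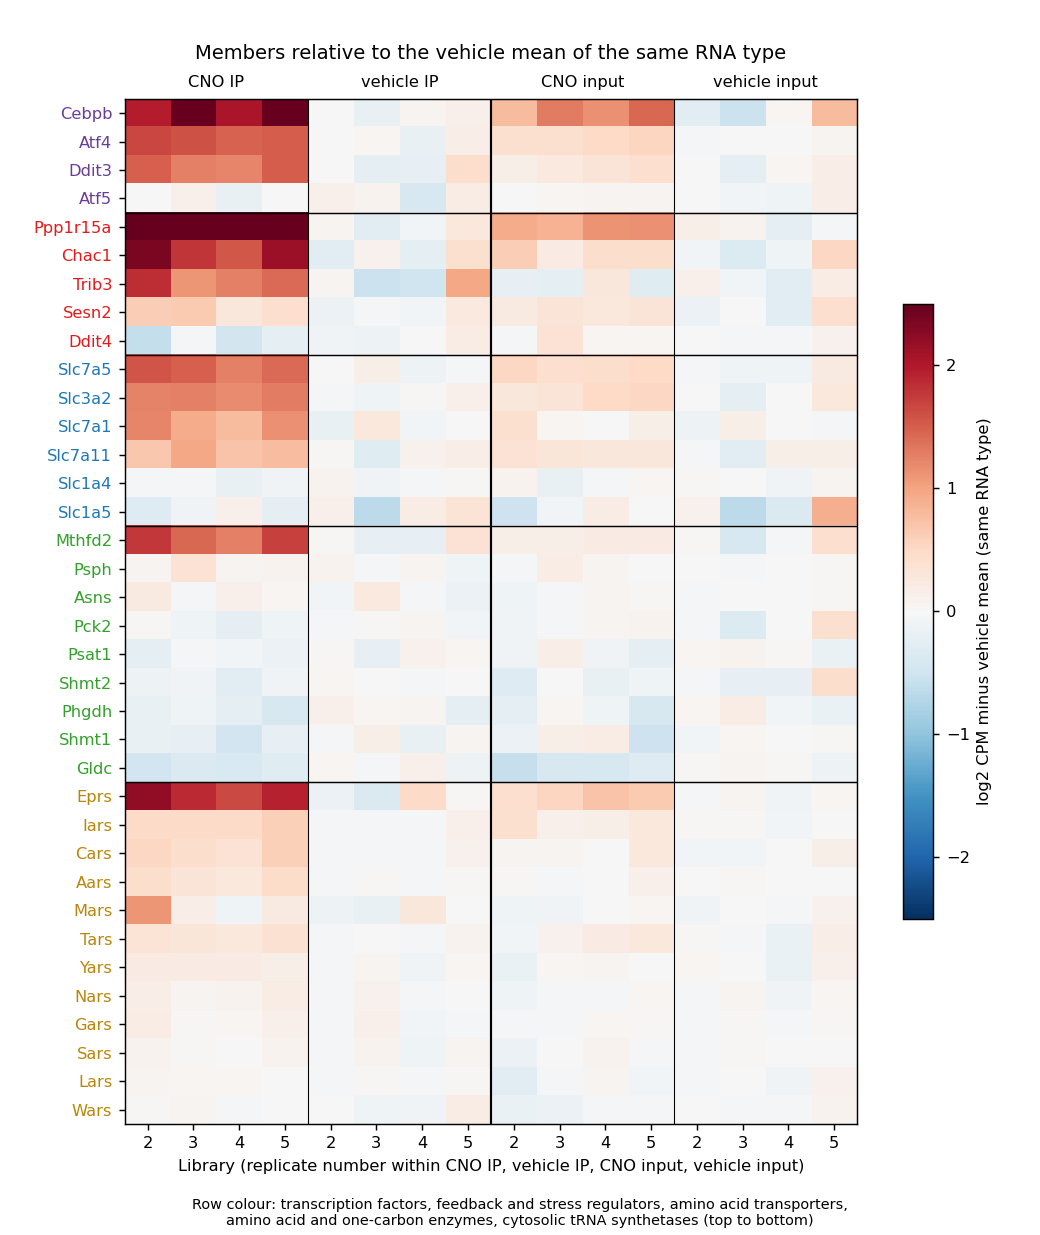
Each row is a member and each column a library; colour gives log2 CPM minus the mean of the 4 vehicle libraries of the same RNA type, with the scale capped at 2.5 in both directions. The rows of Atf4, Ddit3, Cebpb, Ppp1r15a, Chac1, Slc7a5, Slc3a2, Mthfd2 and Eprs are red in all 4 CNO IP columns and paler in CNO input.

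Among the transcription factors, Atf4, Ddit3 and Cebpb rose in IP and Atf5 did not pass the threshold. Atf4 (chr15:80255184-80257541, GENCODE on GRCm38, plus strand) had 246, 232, 213 and 221 CPM in CNO IP and 76.7, 79.2, 67.2 and 85.7 CPM in vehicle IP. Every CNO IP library was more than 2-fold above the highest vehicle IP library, and the log2 difference was 1.57 (SE 0.077, adjusted p = 1.54e-06). Cebpb (chr2:167688915-167690418), which encodes C/EBP beta, a dimer partner of ATF4, had 34.2, 54.4, 35.9 and 59.5 CPM in CNO IP and 8.74, 7.68, 9.18 and 9.56 CPM in vehicle IP. The groups were far apart, although the CNO libraries fell into a lower pair (replicates 2 and 4) and a higher pair (3 and 5), and the log2 difference was 2.35 (SE 0.18, adjusted p = 3.98e-05). Ddit3 (chr10:127290774-127296288), which encodes CHOP, the factor that carries prolonged stress towards cell death, had 79.8, 68.1, 65.6 and 80.6 CPM in CNO IP and 28.1, 24.1, 24.4 and 38.5 CPM in vehicle IP. The groups did not overlap, vehicle replicate 5 was the highest of its group, and the log2 difference was 1.37 (SE 0.15, adjusted p = 0.000319). Atf5, a related factor whose mRNA also has upstream open reading frames, ranged from 21.6 to 27.1 CPM in CNO IP and from 18.7 to 28.1 CPM in vehicle IP, with a log2 difference of -0.011 (SE 0.13, adjusted p = 0.974). Exons of Ddit3 overlap those of the member Mars on the opposite strand, those of Atf5 overlap Il4i1 and Nup62, and those of Cebpb overlap Tmem189, so reads could not be assigned with certainty there, since the strand setting of the counting is not given in the sources used here.

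The largest rise of all members was in a feedback gene. Ppp1r15a (chr7:45522916-45526268) encodes GADD34, the subunit that directs protein phosphatase 1 to eIF2, and its exons overlap Tulp2 on the other strand. It had 156, 126, 119.7 and 169.9 CPM in CNO IP and 20.9, 16.7, 19.1 and 24.2 CPM in vehicle IP. The lowest CNO library was well above the highest vehicle library, and the log2 difference was 2.82 (SE 0.14, adjusted p = 2.49e-06), a 7.05-fold change. Chac1 (chr2:119351229-119354381), an enzyme that breaks down glutathione, had 21.8, 14.7, 12.5 and 18.7 CPM in CNO IP and 3.52, 4.61, 3.58 and 5.64 CPM in vehicle IP. It was low in both groups, but the groups were separate, with a log2 difference of 1.96 (SE 0.21, adjusted p = 0.000236). Trib3 (chr2:152337422-152344032), a pseudokinase that binds and restrains ATF4 and CHOP, had 5.15, 3.09, 3.44 and 3.85 CPM in CNO IP and 1.51, 0.987, 1.02 and 2.82 CPM in vehicle IP. Vehicle replicate 5 came close to the lowest CNO library, and the log2 difference was 1.40 (SE 0.33, adjusted p = 0.0199). The call was lost without CNO replicate 2, without vehicle replicate 2 or without vehicle replicate 4, with an adjusted p of up to 0.0592. Sesn2 (chr4:132492032-132510501), a sestrin that senses leucine and restrains mTORC1, had 122, 125, 97.8 and 107 CPM in CNO IP and 72.6, 78.8, 75.7 and 94.0 CPM in vehicle IP. Its groups met closely at CNO replicate 4 and vehicle replicate 5 without overlapping, and its log2 difference was 0.49 (SE 0.10, adjusted p = 0.0102). Ddit4, which encodes the mTORC1 inhibitor REDD1, ranged from 30.1 to 43.5 CPM in CNO IP and from 41.5 to 51.4 CPM in vehicle IP. Those ranges overlapped at CNO replicate 3, and the log2 difference of -0.34 (SE 0.12, adjusted p = 0.0874) missed the threshold but passed it without CNO replicate 3 (adjusted p = 0.0280), under upper quartile scaling and with all 16 libraries in 1 fit.

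**Figure D3:**
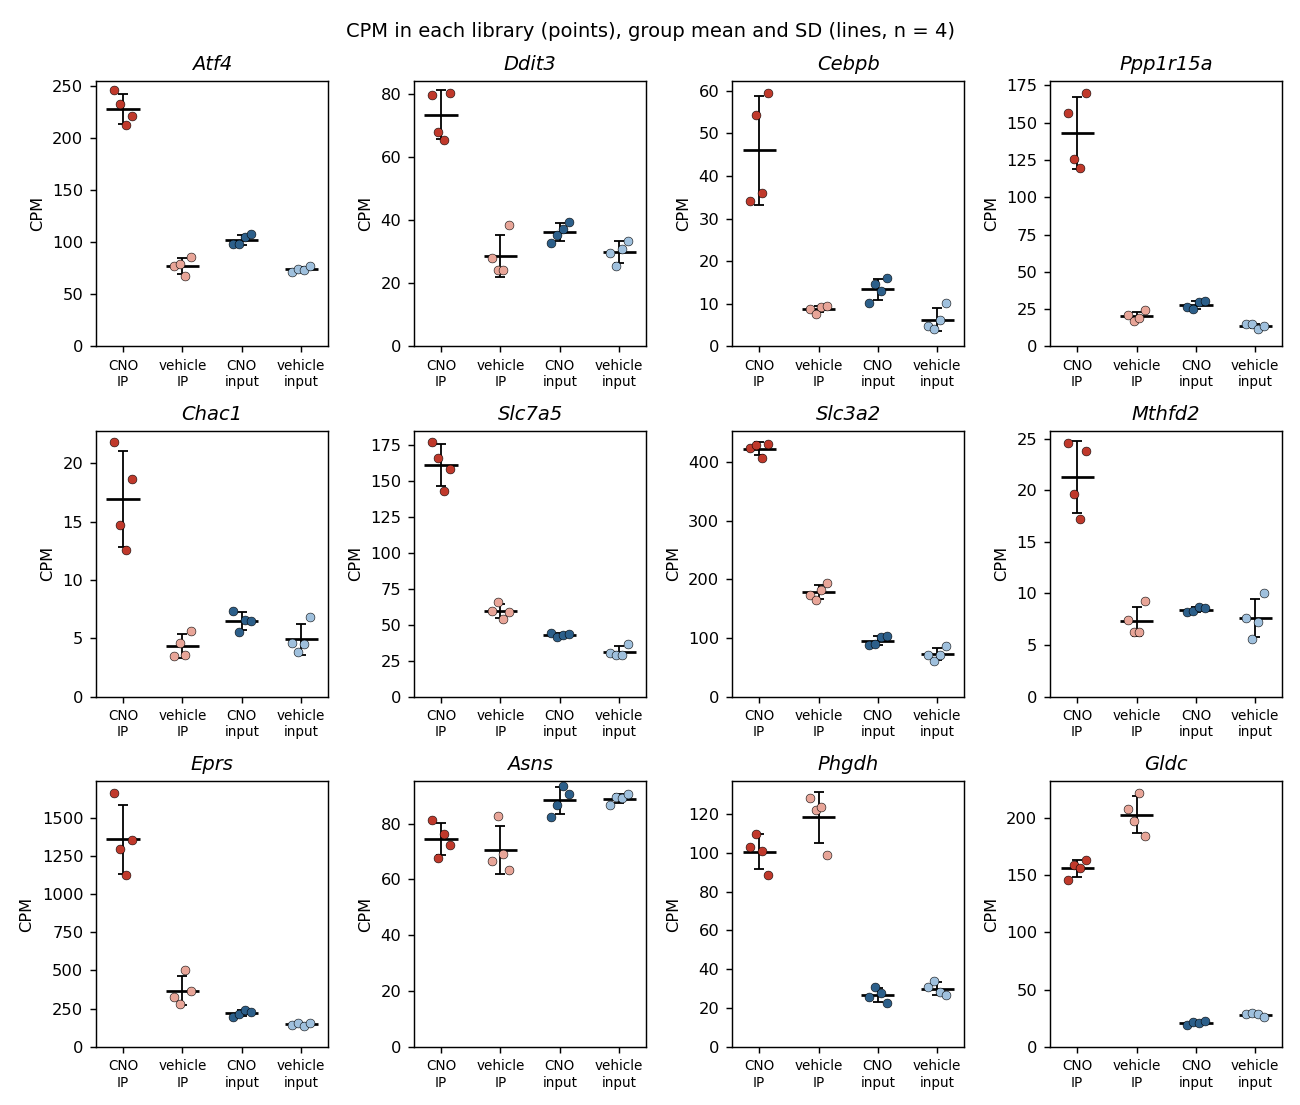
CPM of 12 members in each library (points), with group means and SD (black lines, n = 4), with both IP groups left of both input groups. The 4 CNO IP points stand above all vehicle IP points for the first 9 genes (Atf4 to Eprs), overlap them for Asns and Phgdh, and lie below them for Gldc.

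Of the transporters 4 rose, and they included 2 light chains and the shared heavy chain of the heterodimeric carriers. Slc3a2 (chr19:8706882-8723369) encodes that heavy chain, CD98. It had 424, 429.6, 407 and 432 CPM in CNO IP and 174, 165, 182 and 193 CPM in vehicle IP. Libraries within each group lay close together, and the log2 difference was 1.25 (SE 0.055, adjusted p = 7.31e-07). Slc7a5 (chr8:121881150-121907694), the LAT1 light chain for large neutral amino acids, had 177, 166, 143 and 158 CPM in CNO IP and 59.6, 65.7, 54.2 and 58.6 CPM in vehicle IP. All CNO libraries were more than 2-fold above the vehicle libraries, with a log2 difference of 1.43 (SE 0.078, adjusted p = 2.76e-06). Slc7a11 (chr3:49892526-50443614), the xCT light chain that imports cystine in exchange for glutamate, had 449.8, 547, 459.8 and 483 CPM in CNO IP and 287, 228, 303 and 317 CPM in vehicle IP. The groups were separate and the log2 difference was smaller, at 0.78 (SE 0.11, adjusted p = 0.00109). Slc7a1 (chr5:148327410-148399904), the cationic amino acid transporter CAT-1, had 77.0, 62.8, 56.9 and 72.8 CPM in CNO IP and 29.2, 39.5, 31.5 and 32.6 CPM in vehicle IP. Its groups did not overlap, and the log2 difference was 1.02 (SE 0.12, adjusted p = 0.000418). The neutral amino acid exchangers did not pass the threshold. Slc1a4 (ASCT1) ranged from 176 to 196 CPM in CNO IP and from 188 to 212 CPM in vehicle IP, with a log2 difference of -0.086 (SE 0.053, adjusted p = 0.334). Slc1a5 (ASCT2) ranged from 6.88 to 9.42 CPM in CNO IP and from 5.44 to 10.95 CPM in vehicle IP, with a log2 difference of -0.13 (SE 0.21, adjusted p = 0.770).

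Of the 9 enzymes 1 rose, 1 fell and 7 did not pass, with a median log2 difference of -0.13. These counts lay near the shares over all genes tested, of which 10.2% were higher and 7.08% lower. Mthfd2 (chr6:83305691-83325908), the mitochondrial methylenetetrahydrofolate dehydrogenase, had 24.6, 19.6, 17.2 and 23.8 CPM in CNO IP and 7.40, 6.30, 6.30 and 9.28 CPM in vehicle IP. The groups were separate, with vehicle replicate 5 the highest of its group, and the log2 difference was 1.54 (SE 0.15, adjusted p = 0.000167). Gldc (chr19:30098447-30175429), the decarboxylase of the glycine cleavage system, had 146, 158, 156 and 163 CPM in CNO IP and 208, 197, 222 and 184 CPM in vehicle IP. Every CNO library was below every vehicle library, and Gldc fell with a log2 difference of -0.38 (SE 0.064, adjusted p = 0.00360). The 3 enzymes of the serine synthesis pathway did not pass. Phgdh, its first step, ranged from 88.7 to 109.9 CPM in CNO IP and from 98.9 to 129 CPM in vehicle IP, with a log2 difference of -0.23 (SE 0.093, adjusted p = 0.136), which passed at an adjusted p of 0.0163 without vehicle replicate 5. Psat1, the aminotransferase, had a log2 difference of -0.13 (SE 0.078, adjusted p = 0.335), and Psph, the phosphatase, had 0.15 (SE 0.077, adjusted p = 0.247). Asns, the asparagine synthetase and a textbook ATF4 target, ranged from 67.6 to 81.3 CPM in CNO IP and from 63.2 to 82.9 CPM in vehicle IP. Its ranges overlapped and its log2 difference was 0.085 (SE 0.089, adjusted p = 0.615). The serine hydroxymethyltransferases Shmt1 and Shmt2 had log2 differences of -0.27 and -0.14, and Pck2, the mitochondrial phosphoenolpyruvate carboxykinase, had -0.11. All CNO IP libraries were below all vehicle IP libraries for Shmt1 and Shmt2, and Shmt2 passed under upper quartile scaling at an adjusted p of 0.0329. Exons of Psph, Shmt1 and Shmt2 overlap Cct6a, Smcr8 and Ndufa4l2 on the opposite strand.

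All 12 synthetases had a positive log2 difference in IP, from 0.01 to 1.91, and 6 of them passed. The sign of the smallest differences depended on the scaling and on single libraries. Wars was below 0 under upper quartile and median of ratios scaling and without CNO replicate 3, vehicle replicate 3 or vehicle replicate 4, and Lars and Sars were below 0 under upper quartile scaling. Eprs (chr1:185363044-185428360), the fused glutamyl-prolyl synthetase, had the largest rise of the synthetases. It had 1665, 1299, 1124 and 1358 CPM in CNO IP and 325, 277, 500.9 and 363 CPM in vehicle IP. All CNO libraries were more than 2-fold above vehicle replicate 4, the highest of its group, and the log2 difference was 1.91 (SE 0.18, adjusted p = 0.000152), a 3.76-fold change. Iars (chr13:49682100-49734267), the isoleucyl enzyme, had 82.7, 82.5, 82.4 and 89.7 CPM in CNO IP and 57.5, 57.0, 57.9 and 64.4 CPM in vehicle IP. Replicate 5 was the highest in both groups, the groups were separate and the log2 difference was 0.51 (SE 0.052, adjusted p = 0.000176). Cars (chr7:143557230-143600090), the cysteinyl enzyme, had 52.5, 50.1, 46.9 and 55.7 CPM in CNO IP and 35.8, 36.1, 35.7 and 39.3 CPM in vehicle IP. These groups were also separate, with a log2 difference of 0.48 (SE 0.061, adjusted p = 0.000665). Aars, the alanyl enzyme, ranged from 292 to 334 CPM in CNO IP and from 237 to 248 CPM in vehicle IP (log2 difference 0.37). Tars, the threonyl enzyme, ranged from 58.1 to 62.7 CPM in CNO IP and from 46.6 to 51.1 CPM in vehicle IP (log2 difference 0.33). Yars, the tyrosyl enzyme, ranged from 106 to 111 CPM in CNO IP and from 90.4 to 99.9 CPM in vehicle IP (log2 difference 0.19). The adjusted p-values were 0.00148 for Aars, 0.00115 for Tars and 0.0170 for Yars. The call on Yars was lost under upper quartile scaling and without CNO replicate 2 or 4 or vehicle replicate 2 or 4, with an adjusted p of up to 0.0810. Exons of Aars overlap Exosc6 and those of Yars overlap C77080.

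The other 6 synthetases did not pass. Mars, the methionyl enzyme, had 162, 84.3, 69.6 and 87.3 CPM in CNO IP and 69.1, 66.2, 92.0 and 76.1 CPM in vehicle IP. CNO replicate 2 lay far above the other 7 libraries, the groups overlapped and the log2 difference was 0.34 (SE 0.24, adjusted p = 0.411). Its partner in exon overlap, Ddit3, did not stand out in that library. The log2 differences were 0.13 for Nars (asparaginyl), 0.10 for Gars (glycyl), 0.053 for Sars (seryl), 0.040 for Lars (leucyl) and 0.012 for Wars (tryptophanyl). Nars passed without vehicle replicate 3, at an adjusted p of 0.0421.

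The same comparison in input asked how far the changes were seen in RNA of the whole striatum. In input 4 members were higher and 1 was lower, where 0.815% of the 15825 genes tested were higher and 0.183% were lower. The members' median log2 difference was 0.04, against -0.02 for all genes. All CNO input libraries lay above all vehicle input libraries for 8 members and below them for 1, where 3.22% and 4.03% of genes did so. Atf4 had 98.0, 97.9, 105 and 108 CPM in CNO input and 71.7, 74.2, 73.0 and 77.2 CPM in vehicle input. The groups were separate and the log2 difference was 0.46 (SE 0.052, adjusted p = 0.00152). Ppp1r15a had 26.2, 25.2, 29.9 and 30.3 CPM in CNO input and 15.2, 14.7, 11.8 and 13.6 CPM in vehicle input. It was again the member with the largest called rise, at 1.01 (SE 0.10, adjusted p = 0.000520). Eprs had 195, 215, 242 and 231 CPM in CNO input and 144, 154, 138 and 152 CPM in vehicle input, with separate groups and a log2 difference of 0.58 (SE 0.072, adjusted p = 0.00279). The call on Eprs was lost when all 16 libraries shared 1 fit, at an adjusted p of 0.0594. Slc7a5 had 44.4, 41.4, 42.5 and 43.8 CPM in CNO input and 30.6, 28.9, 29.0 and 36.6 CPM in vehicle input. Vehicle replicate 5 was the nearest to the CNO libraries, and the log2 difference was 0.47 (SE 0.078, adjusted p = 0.0205).

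Gldc fell in input too, with 18.8, 21.2, 21.2 and 22.4 CPM in CNO input and 28.7, 29.2, 28.6 and 25.7 CPM in vehicle input. No CNO library reached a vehicle library, and the log2 difference was -0.43 (SE 0.072, adjusted p = 0.0212). The calls on Slc7a5 and Gldc in input were lost most often among the input calls: Slc7a5 was lost on leaving out any of the 4 CNO libraries or vehicle replicate 2, 3 or 4 (adjusted p up to 0.0976), and Gldc on leaving out CNO replicate 3 or 4 or vehicle replicate 2, 3 or 4 (adjusted p up to 0.106). Without vehicle input replicate 5, the count of higher members was 7, with Cebpb, Sesn2 and Slc3a2 added. Cebpb had 10.2, 14.5, 13.0 and 15.96 CPM in CNO input and 4.83, 4.06, 6.10 and 10.1 CPM in vehicle input. Its log2 difference of 1.16 (SE 0.27, adjusted p = 0.133) was the largest of the members in input, but vehicle replicate 5 reached the lowest CNO library to within a small margin. Slc3a2 had 87.3, 89.9, 102 and 103 CPM in CNO input and 71.0, 61.2, 71.5 and 85.8 CPM in vehicle input, separate by a narrow gap, with a log2 difference of 0.40 (SE 0.10, adjusted p = 0.132). The 10 endothelial and pericyte markers summed to 149.7 to 178 CPM in CNO input and 192 to 215 CPM in vehicle input, with 2 of 10 lower (Pdgfrb and the endothelial junction gene Cldn5). Of the 10, 9 had a negative log2 difference in input, with a median of -0.30. At an unadjusted p under 0.05 in limma, 8 were lower and 0 higher. The part of these markers in the members' results was not tested.

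**Figure D4:**
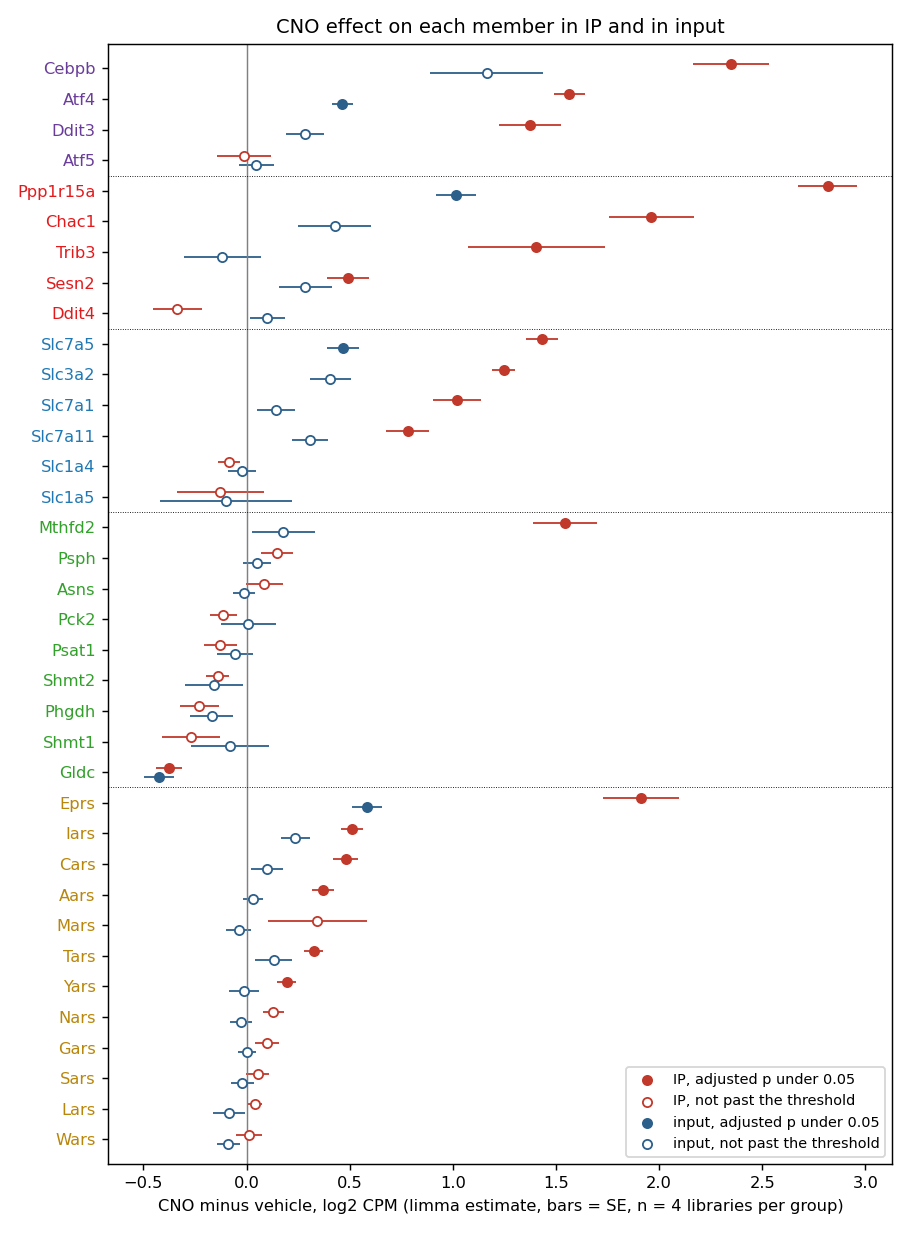
Log2 difference of CNO minus vehicle with its SE for each member, in IP (red) and in input (blue), ordered by role; filled points had an adjusted p under 0.05 in limma with n = 4 libraries per group. In IP 18 filled points lie right of 0 and 1 left of it, and in input 4 lie right and 1 left.

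Whether the CNO effects differed between IP and input was tested as an interaction over all 16 libraries. The effect in IP minus that in input was positive and past the threshold for 12 members, where 4.18% of the 16256 genes tested were positive and 0.572% negative. It was negative and past the threshold for 0 members (1 at an unadjusted p under 0.05, and 0 in limma-voom). Over all genes 680 were positive and 93 negative as deposited, 559 and 156 under median of ratios scaling, and 544 and 198 under upper quartile scaling. The differences on the log2 scale were 1.80 for Ppp1r15a, 1.54 for Chac1, 1.52 for Trib3, 1.37 for Mthfd2 and 1.33 for Eprs. They were 1.10 for Atf4, 1.09 for Ddit3, 0.97 for Slc7a5, 0.88 for Slc7a1 and 0.84 for Slc3a2. Aars and Cars had the smallest called differences, at 0.34 and 0.38. Adjusted p-values over these 12 ran from 1.30e-06 for Atf4 to 0.0360 for Cars. With the mouse as a replicate block, 14 members were positive and 1 was negative: Cebpb (adjusted p = 0.00412) and Slc7a11 (adjusted p = 0.00148) joined the positive ones, and Ddit4 was the negative one (log2 difference -0.44, adjusted p = 0.00280). That block raised the counts over all genes as well, to 1018 positive and 222 negative.

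The calls on Trib3 and Cars in this test were lost most often. Trib3 was lost without any 1 of 12 libraries: CNO input 2, 3 or 5, CNO IP 2, 4 or 5, vehicle input 2, 3 or 5, or vehicle IP 2, 3 or 4, with an adjusted p of up to 0.0777. Cars was lost under upper quartile and median of ratios scaling, and without CNO input 2, 3 or 4, CNO IP 2, 3 or 5, vehicle input 4 or 5, or vehicle IP 2, 3 or 4, with an adjusted p of up to 0.0859. Iars, at 0.28 (SE 0.087, adjusted p = 0.0975), did not pass but did so without CNO input 2 or vehicle IP 5. Cebpb and Slc7a11 also passed without vehicle input 3, and Ddit4 without CNO IP 3. For Gldc, which fell in both kinds of RNA, the interaction estimate was 0.048 (SE 0.093, adjusted p = 0.937), and missing the threshold does not show that the effects were equal.

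IP was set against input in vehicle mice to show where the members stood with no CNO. In vehicle mice 25 members were higher in IP and 1, Asns, was lower, where 37.7% of the 15872 genes tested were higher and 37.2% were lower. The median log2 ratio of IP over input was 0.61 for the members and 0.01 for all genes. Of the 9 enzymes 6 were higher in IP, 1 was lower and 2 did not pass. Gldc had 208, 197, 222 and 184 CPM in vehicle IP and 28.7, 29.2, 28.6 and 25.7 CPM in vehicle input, a log2 ratio of 2.85 (SE 0.066, adjusted p = 1.85e-09). Phgdh, Psat1 and Psph had log2 ratios of 1.98, 1.61 and 1.48. Shmt2 (0.94) and Pck2 (0.64) were also higher in IP. Shmt1, at -0.25, did not pass, although its IP libraries lay below all input libraries. Sesn2 (2.34), Slc7a11 (2.27) and Slc1a4 (2.03) also had ratios above 2 on the log2 scale.

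Asns had 66.6, 82.9, 68.9 and 63.2 CPM in vehicle IP and 86.5, 89.5, 89.3 and 90.5 CPM in vehicle input. Its IP libraries lay below all input libraries, with a log2 ratio of -0.34 (SE 0.077, adjusted p = 0.00258). Of the 12 synthetases 11 were higher in IP, with Eprs at 1.29 and Aars at 0.90, and Yars did not pass. Of the 11 members at least 2-fold higher with CNO in IP, 4 were higher in IP than in input in vehicle mice and 7 did not pass. The 4 were Slc3a2 (1.31), Eprs, Slc7a5 (0.93) and Ppp1r15a (0.54). Among the 7, Cebpb had a log2 ratio of 0.57, Slc7a1 0.14 and Trib3 -0.69. Atf4 had a log2 ratio of 0.055, Ddit3 -0.076, Mthfd2 -0.045 and Chac1 -0.17. With the mouse as a replicate block, 29 members were higher and 2 lower, and Cebpb, Slc7a1, Slc1a5 and Yars joined the higher members and Trib3 the lower ones. Over all genes, that block gave 6343 higher and 6223 lower. Without both libraries of vehicle mouse 5, a choice made after seeing the data, 27 members were higher and 2 lower, and over all genes 5844 and 5466. Upper quartile scaling moved the median of all genes by -0.15 in this comparison and gave 4896 genes higher and 7115 lower, against 5978 and 5903 as deposited. Under it Gars lost its call (adjusted p = 0.0612) and Trib3 and Shmt1 were lower in IP.

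**Figure D5:**
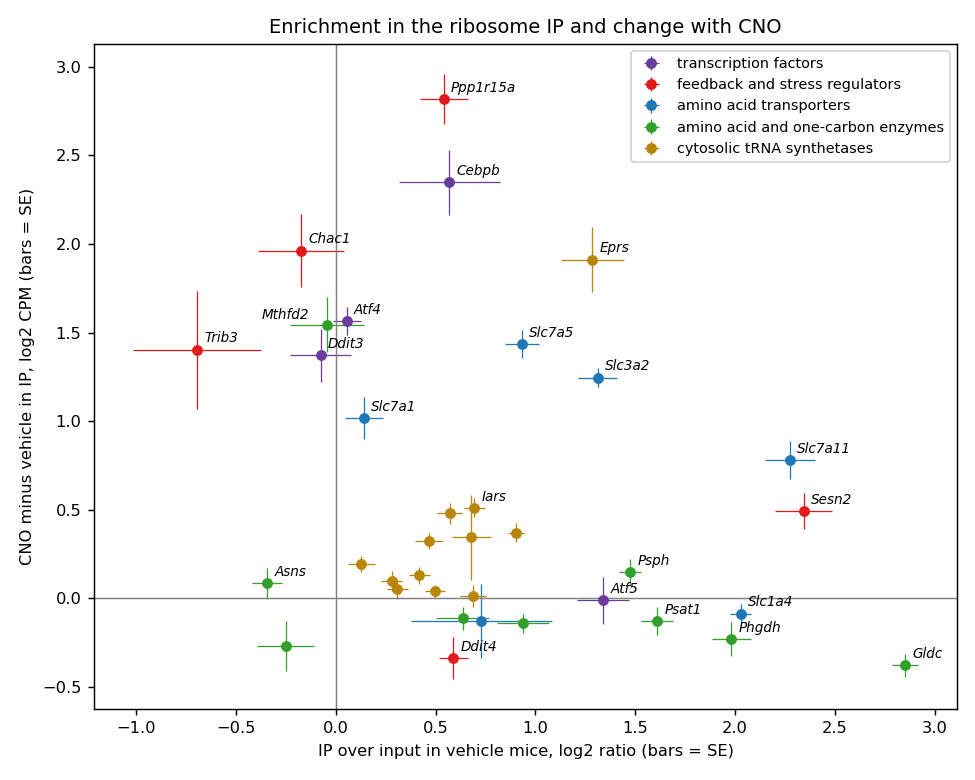
Each point is a member: log2 ratio of IP over input in vehicle mice (horizontal) and log2 difference of CNO minus vehicle in IP (vertical), with SE bars, coloured by role. Both axes use the vehicle IP libraries, so no correlation is given. Gldc, Phgdh, Psat1 and Slc1a4 lie far right at or below 0, whereas Sesn2 and Slc7a11 lie far right and above 0. Slc3a2 and Eprs lie above 1 on both axes. Atf4, Ddit3, Mthfd2 and Chac1 lie near 0 on the horizontal axis and above 1 on the vertical one.

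Members of a role were also summed in CPM. The 6 transporters together had 1332 ± 63.7 CPM in CNO IP and 764 ± 51.9 CPM in vehicle IP (mean ± SD, n = 4 each). The 12 synthetases had 2824 ± 302 CPM in CNO IP and 1631 ± 86.5 CPM in vehicle IP, most of the gap being Eprs. The 9 enzymes had 826 ± 29.4 CPM in CNO IP and 905 ± 47.5 CPM in vehicle IP.

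The 5 further lists of genes around the pathway give the surroundings in IP, where 10.2% of all genes tested were higher and 7.08% lower. Of 11 other cytosolic synthetases and proteins of their complex, 0 passed in either direction (3 higher and 0 lower at an unadjusted p under 0.05, and 0 in limma-voom), with a median log2 difference of 0.08. Of 17 mitochondrial tRNA synthetases, 1 was higher (Ears2, 0.32) and 2 were lower (Pars2, -0.30, and Hars2, -0.21). The call on Ears2 was lost without CNO replicate 4 or vehicle replicate 2, and that on Pars2 without vehicle replicate 2. Of 16 genes for eIF2, its kinases, the kinase regulators Gcn1l1 and Impact, eIF2B and phosphatase subunits, 5 were higher and 0 lower. The lower count was 0 also at an unadjusted p under 0.05 and in limma-voom. Without vehicle replicate 2 or vehicle replicate 4, 3 were higher. The leading ones of the 5 were Ppp1r15b (0.70), the constitutive counterpart of GADD34, then Impact (0.39), Eif2b4 (0.38) and Eif2s2 (0.24). Of 24 other ATF4 targets 8 were higher and 1, Map1lc3b (-0.17), was lower. The lower count was 2 under upper quartile and median of ratios scaling and without vehicle replicate 4, with Slc6a9 added. Atf3, a stress-induced factor that other pathways also raise, averaged 113 CPM in CNO IP and 2.93 CPM in vehicle IP, a log2 difference of 5.34 (SE 0.28, adjusted p = 3.67e-06). Gdf15 (1.76), a secreted stress factor, Aldh18a1 (0.70), an enzyme of proline synthesis, and Mthfd1l (0.47), a mitochondrial folate enzyme, were next by size.

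Of 20 genes of the ATF6 and XBP1 arms of the unfolded protein response of the endoplasmic reticulum, 16 were higher and 0 lower. The lower count was 0 also at an unadjusted p under 0.05 and in limma-voom. The median log2 difference of the 20 genes was 0.32. Hspa5, the chaperone BiP, averaged 1047 CPM in CNO IP and 433 CPM in vehicle IP, a log2 difference of 1.27. Xbp1 (1.06), Manf (0.91) and Creld2 (0.90) followed. In input 1 gene of these 5 lists (11, 17, 16, 24 and 20 genes) passed, Atf3, at a log2 difference of 3.51 (SE 0.35, adjusted p = 0.00199). Over the 15825 genes tested in input, 0.815% were higher and 0.183% lower, so this count lay near the share over all genes.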

How the data were processed

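RNA of 16 libraries (4 groups of 4) was sequenced by the authors as paired ends. The deposited values are log2 CPM per gene; demultiplexing with bcl2fastq 2.17, alignment with STAR to mm10, counting with HTSeq and limma are named in the submitters' processing notes, with the other versions and the annotation not given in the sources used here. Whole reads were recovered from the deposited log2 CPM values (100% within 0.01 of a whole number at an assumed prior count of 0.25), so depth per library was known. Printed CPM are the deposited log2 CPM values taken off the log scale, so they still hold the prior count. The library sizes behind them were normalized. Divided by the reads assigned to genes, they were 0.880 to 0.932 in IP libraries and 1.08 to 1.14 in input libraries. Ratios of IP over input therefore depend on this scaling.

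Genes at or above the CPM of 10 reads in the median library in at least 4 libraries were fitted with limma 3.58.1 (R 4.3.3, lmFit and eBayes with trend and robust) on the deposited log2 CPM values. Adjustment for the number of genes fitted followed Benjamini and Hochberg, and 0.05 was the threshold. All 36 members passed the filter in each comparison. The fit was tested on simulated data. Groups came from the labels, and the main fits had no block. IP and input of the same mouse deviated together (r of 0.22 to 0.60 in vehicle mice and 0.21 to 0.46 in CNO mice), and their shared mouse comes from the sample titles, so the mouse pairs them. Members, lists and tests were chosen with earlier results of these data known. Values in every library are given for the 16 members with the largest absolute log2 difference in IP among those past the threshold or among the 4 transcription factors, and beside that rule for Mars, Asns and input values chosen after their values were seen. From each list outside the members, up to 4 called genes with the largest difference are named. Promoters are those of called members with the C/EBP-ATF element, up to 8, and of Atf4; the promoter window of 1 member is not reported here. Gene positions and exon overlaps are from GENCODE vM21 (GRCm38, the same assembly as mm10).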

Additional observations from a re-analysis of the deposited data

Results flagged for a closer look

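In 11 of 144 sets of 4 replicate libraries (36 members in 4 groups), 1 library stood apart from the other 3 by Dixon's criterion, which chance meets in about 1 in 20 sets. In CNO IP, Psph in replicate 3 was the highest at 68.3 CPM, Iars in replicate 5 was the highest at 89.7 CPM, Shmt1 in replicate 4 was the lowest at 1.14 CPM, and Yars in replicate 5 was the lowest at 106 CPM. In vehicle IP, Cars and Iars in replicate 5 were the highest at 39.3 and 64.4 CPM, Gars in replicate 3 was the highest at 151 CPM, and Atf5 in replicate 4 was the lowest at 18.7 CPM. In CNO input, Trib3 in replicate 4 was the highest at 2.84 CPM and Slc7a11 in replicate 2 was the highest at 74.8 CPM. In vehicle input, Gldc in replicate 5 was the lowest at 25.7 CPM.

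The CNO effect in IP exceeded that in input for 12 members by the interaction test in limma. Of the 16256 genes tested, 4.18% had a positive difference past the threshold and 0.572% a negative one. The calls on Trib3 and Cars were lost most often, under 12 and 13 of the 23 alternatives. On the log2 scale the excess was 1.80 for Ppp1r15a, 1.54 for Chac1, 1.52 for Trib3, 1.37 for Mthfd2, 1.33 for Eprs, 1.10 for Atf4, 1.09 for Ddit3, 0.97 for Slc7a5, 0.88 for Slc7a1, 0.84 for Slc3a2, 0.38 for Cars and 0.34 for Aars.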

How the results depend on the processing

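No member past the threshold changed sign under any alternative in the 4 comparisons, and no changed sign was itself past the threshold. Members that did not pass did change sign somewhere: 4 for CNO with vehicle in IP (Atf5, Lars, Sars and Wars), 9 in input, 4 for IP with input and 6 for the difference, each with a reported log2 value within 0.142 of 0. In CNO with vehicle in IP, 30 of 36 members stayed on their side of the threshold under all 15 alternatives, with 16 to 19 members higher on leaving out 1 library. The count of lower members there, 1, was 3 under upper quartile scaling, 2 under the replicate block, 2 with all 16 libraries in 1 fit, and 1 to 2 on leaving out 1 library. In CNO with vehicle in input, 3 to 7 members were higher on leaving out 1 library. The lower count there, 1, was 0 under the replicate block and 0 to 1 on leaving out 1 library. In IP with input in vehicle mice, the lower count, 1, was 3 under upper quartile scaling, 2 under the replicate block, 2 with all 16 libraries in 1 fit, 2 without both libraries of vehicle mouse 5, and 1 to 2 on leaving out 1 library. For the CNO effect in IP minus that in input, the lower count, 0, was 1 under the replicate block and 0 to 1 on leaving out 1 library. The cause was not tested.

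CNO and vehicle libraries with the same replicate number did not deviate together (r of -0.20 to 0.21 in IP and -0.36 to 0.01 in input), so they share only a number. With that number as a replicate block, 17 members were higher in IP and 3 in input: Yars in IP (adjusted p = 0.0631) and Slc7a5 (0.0523) and Gldc (0.132) in input did not pass, and Phgdh (0.0358) was lower in IP. The block left 3 of the 16 genes of the eIF2 list higher in IP, 0 mitochondrial synthetases higher and 0 other ATF4 targets lower. Over all genes, the lower count under the block was 717 in IP, against 1104 without it, 7 in input, against 29, and 222 for the difference, against 93. For the same counts, all 16 libraries in 1 fit gave 192 higher and 105 lower in input, against 129 and 29. The median of ratios and upper quartile scalings gave 156 and 198 lower for the difference. On leaving out 1 library, the lower count over all genes ran from 596 to 1213 in IP, from 4 to 27 in input and from 44 to 111 for the difference, and the higher count in input from 85 to 155. No other count of members in the 4 comparisons changed by over 1.5 times. The fewest reads behind a member's value in IP were 53 (Shmt1) and 54 (Trib3), where counting error weighs most.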
